A study of Homo sapiens with 8 samples.

Results

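Proteins that enter the secretory pathway fold in the lumen of the endoplasmic reticulum (ER) with the help of its own chaperones. Ribosomes that make such proteins dock at the translocon, so the nascent chain passes into the lumen as it is made, whereas the chaperonin TRiC (also called CCT) and its cochaperone prefoldin (PFD) act in the cytosol. The ER chaperones are made by docked ribosomes of the same kind, because each of them carries a signal sequence. Their genes are known targets of the unfolded protein response, which raises their transcription when the ER is loaded with misfolded protein.

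The 10 genes described here were chosen by name as the abundant chaperones and folding enzymes of the ER, from 60664 genes in the count tables. HSPA5 (BiP) is the Hsp70 of the lumen, HSP90B1 (GRP94) its Hsp90, HYOU1 (GRP170) an Hsp110-type exchange factor for BiP, and DNAJB11 (ERdj3) a J-domain cochaperone of BiP. CANX (calnexin, membrane-bound) and CALR (calreticulin, soluble) are lectins that hold glycoproteins during folding. P4HB (PDI), PDIA3 (ERp57, the partner of both lectins), PDIA4 and PDIA6 are protein disulfide isomerases.

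Ribosome-protected fragments (RPFs, the stretch of mRNA a ribosome shields from nuclease) were sequenced from U-2 OS osteosarcoma cells. In the TRiC–Halo line (genotype label CCT4-Halo) the HaloTag was knocked into a loop of the endogenous TRiC subunit CCT4, and in the PFD–Halo line (PFDN4-Halo) it was joined to the C terminus of endogenous PFD4, and each line was grown from single sorted cells, so a difference between the lines cannot be told apart from a difference between clones. Cells of all groups received cycloheximide at 100 µg/mL for 1 min and the crosslinker DSP at 2 mM for 30 min, lysates were treated with RNase I, and ribosomes were pelleted through sucrose. RPFs of this pellet (input) and of the part recovered with anti-Halo beads (pulldown) gave 4 groups of 2 biological replicates, or 8 libraries: input and pulldown of the TRiC line, and input and pulldown of the PFD line.

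Libraries held 9523128 to 32637658 counts, and the 10 members together took 0.769% to 0.885% of a library. No member had fewer than 933 counts in any library, so the spread between replicates limits precision more than counting does. That spread differed between lines: over genes that averaged at least 100 counts, the SD of the log2 difference between replicates was 0.210 for the TRiC inputs, 0.249 for the TRiC pulldowns, 0.441 for the PFD inputs and 0.890 for the PFD pulldowns. The bone and mesenchymal genes COL1A1 (2877 to 5424 CPM, counts scaled to a common library total), SPARC (2191 to 3143 CPM) and RUNX2 (29.3 to 66.1 CPM) were present, while PTPRC (blood) and ALB (liver) stayed at or below 0.199 CPM. The epithelial gene EPCAM ran from 0.108 to 18.2 CPM and the bone gene ALPL from 2.46 to 42.8 CPM. COL1A2, another bone matrix gene, was nearly absent at 0.052 to 1.98 CPM.

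Most ER-resident soluble chaperones end in the retrieval signal KDEL or a close variant, which receptors in the Golgi use to return them. The last 30 coding bases of 5 members are printed from the GENCODE 44 transcript on hg38, with the last 4 codons before the stop in capitals, to show the signal, its variants and an end without it.
HSPA5 (chr9:125236592-125236621, minus strand): gaggatacagcagaaAAAGATGAGTTGtag
HYOU1 (chr11:119045593-119045622, minus strand): aagcggcctttgaagAACGACGAACTAtaa
PDIA3 (chr15:43771189-43771218, plus strand): aagaagaagaaggcaCAGGAGGATCTCtaa
PDIA4 (chr7:149003794-149003823, minus strand): aaactgagcaggaccAAGGAAGAGCTTtga
CANX (chr5:179728615-179728644, plus strand): ccaagaaacagaaagCCACGAAGAGAGtga
Of the 9 members whose ends are reported, 4 end in KDEL (HSPA5, HSP90B1, P4HB and PDIA6). The capitals encode a related signal in 3 members (HYOU1, PDIA3 and PDIA4) and none of this kind in 2 members (CANX, which is membrane-bound, and DNAJB11). Coding lengths ran from 358 codons (DNAJB11) to 999 codons (HYOU1). The thioredoxin active-site motif (cysteine, glycine, histidine, cysteine) was found in the 4 disulfide isomerases, 3 times in PDIA4 and 2 times each in P4HB, PDIA3 and PDIA6.

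The promoters of several members share the ER stress response element, which stress-activated transcription factors recognize. It was searched for as CCAAT, any 9 bases and CCACG, on both strands, in RefSeq windows from 250 bases before to 50 bases after each start (GRCh38.p14), with no overlap with another motif considered. Matches are shown with the fixed bases in capitals, because these bases are what the members have in common.
HSPA5 (chr9:125241391-125241409): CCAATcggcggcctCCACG
HSP90B1, first match (chr12:103930216-103930234): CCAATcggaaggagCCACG
HSP90B1, other match, opposite strand (chr12:103930321-103930339): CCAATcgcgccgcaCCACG
CALR, opposite strand (chr19:12938384-12938402): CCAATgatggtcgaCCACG
CANX (chr5:179698778-179698796): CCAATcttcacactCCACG
PDIA6 (chr2:10812853-10812871): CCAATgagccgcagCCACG
Of the 9 members with a window, 5 (55.6%) held a match, against 25 of 27305 genes (0.0916%). PDIA3 has no window here. The members are known targets of the unfolded protein response, so this contrast is a description and was not tested. A match describes the sequence only, and the element's use in these cells was not measured.

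The members covered a wide range of synthesis in total ribosomes. Levels are compared between genes as normalised CPM per kilobase of coding sequence, with the scaling made within each line. CALR stood highest and DNAJB11 lowest in all 4 groups. In the TRiC input CALR reached 1552 ± 35.9 CPM per kilobase (SD, n = 2 here and throughout), place 34 among 19929 nuclear protein-coding genes, and was 11.4-fold above DNAJB11 at 136 ± 2.17 CPM per kilobase. In between came PDIA6 (809 ± 29.0), HSPA5 (742 ± 0.334), P4HB (676 ± 14.02), CANX (440 ± 4.64), HSP90B1 (413 ± 0.736), PDIA3 (233 ± 11.6), PDIA4 (194 ± 7.51) and HYOU1 (163 ± 0.697), and no neighbours in this order overlapped between their replicates.

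In the PFD input the order changed at several places. CALR (1101 ± 54.7 CPM per kilobase) was followed by P4HB (781 ± 39.4) and PDIA6 (751 ± 18.2), whose replicates overlapped. PDIA4 (101 ± 6.98) and DNAJB11 (92.7 ± 7.54) overlapped as well, at the bottom of the order. HYOU1 at 131 ± 13.9 lay above PDIA4 there, and below it in the TRiC input.

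**Figure D1:**
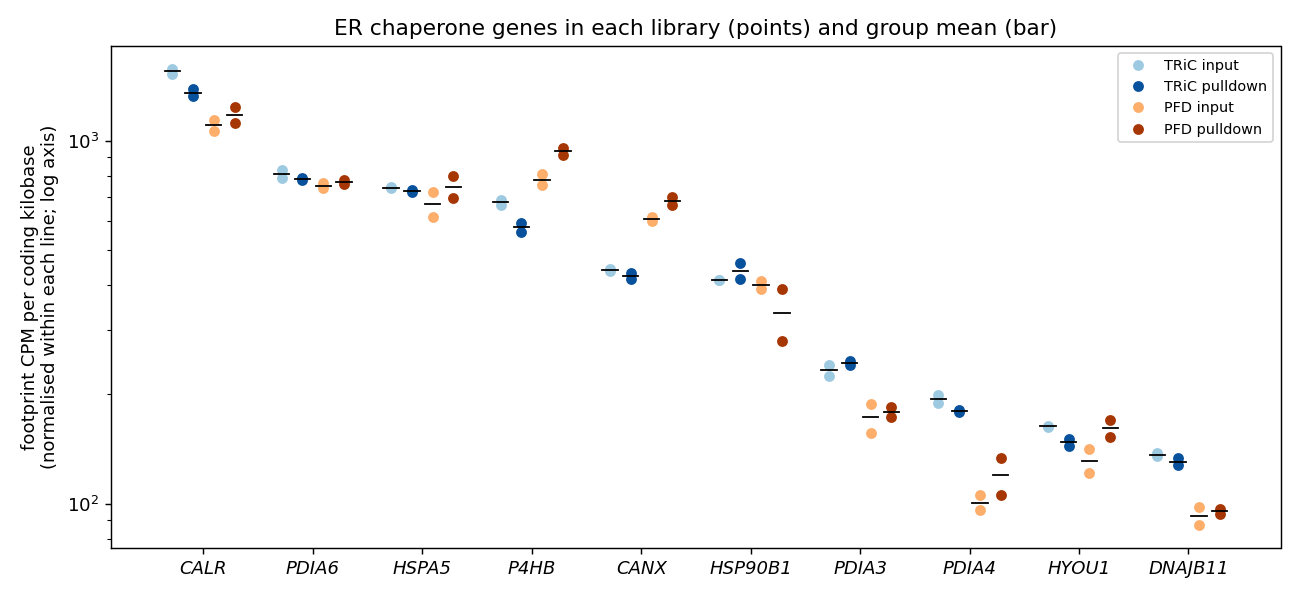
RPF levels of the 10 members as normalised CPM per coding kilobase (y axis, log scale, scaled within each line) for each gene (x axis), with a point for each library and a bar at the mean of each group of 2. CALR is highest and DNAJB11 lowest in every group, and PDIA4 shows the widest gap between the inputs of the 2 lines.

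The first comparison asked whether ribosomes making ER chaperones were recovered with TRiC more or less than other ribosomes. None of the 10 members was higher in the TRiC pulldown than in its input by edgeR. CALR and P4HB were lower, each by a small margin, to 0.872-fold and 0.852-fold, which is 2 of 10 members against 10.6% of 17934 genes tested that were called lower and 8.64% called higher. HSPA5, HSP90B1, CANX and PDIA3 and the other 4 members did not pass, with fold changes from 0.904 (HYOU1) to 1.06 (HSP90B1).

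P4HB was measured at 1046 and 1016 normalised CPM in the TRiC inputs and at 903 and 853 normalised CPM in the pulldowns. CALR was measured at 1973 and 1910 normalised CPM in the inputs and at 1730 and 1657 normalised CPM in the pulldowns. For both genes each pulldown lay below each input. The log2 fold change was -0.23 ± 0.063 (SE) for P4HB with an adjusted p of 0.016, and -0.20 ± 0.060 for CALR with an adjusted p of 0.0276 (edgeR quasi-likelihood test, Benjamini-Hochberg over all genes tested).

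HSPA5 was measured at 1457 and 1456 normalised CPM in the inputs and at 1414 and 1437 normalised CPM in the pulldowns, which gave a log2 fold change of -0.031 with a 95% interval from -0.16 to 0.094. HSP90B1 was measured at 993 and 996 normalised CPM in the inputs and at 1002 and 1107 normalised CPM in the pulldowns, which gave a log2 fold change of 0.085 with an interval from -0.054 to 0.22. HSP90B1 was thus the member whose pulldowns both lay above its inputs. HYOU1 was measured at 488 and 491 normalised CPM in the inputs and at 452 and 432 normalised CPM in the pulldowns (-0.15, interval -0.29 to -0.0059, edgeR adjusted p = 0.137). Among the lectins and isomerases CANX (-0.055, interval -0.19 to 0.078), PDIA6 (-0.044, -0.18 to 0.087) and PDIA3 (0.065, -0.082 to 0.21) had log2 fold changes near 0. PDIA4 (-0.11, -0.26 to 0.032) and DNAJB11 (-0.063, -0.23 to 0.10) leaned lower without passing. Both pulldowns lay below both inputs for 7 members, against 31.2% of all genes tested, and above for 1 member, against 29.3%.

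**Figure D2:**
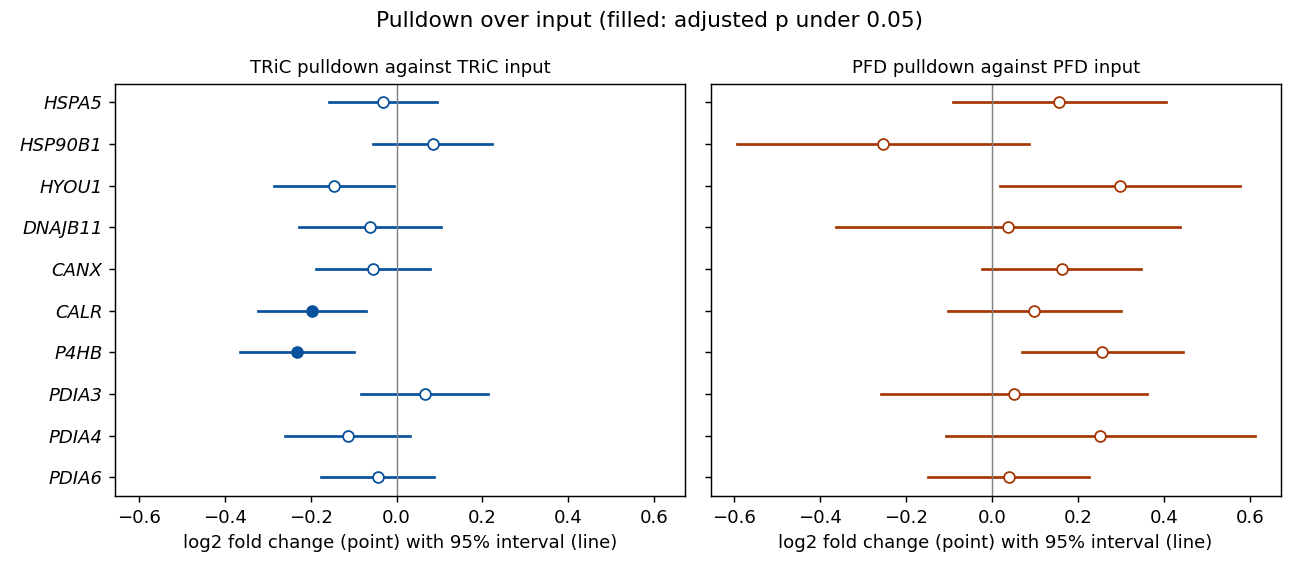
Log2 fold change of pulldown over input (x axis) for the 10 members (y axis) in the TRiC line (left) and the PFD line (right), with points for the edgeR estimate, lines for its 95% interval and filled points for an adjusted p under 0.05. Only CALR and P4HB in the TRiC line are filled, and the intervals are wider in the PFD line.

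The 2 calls depended on the scaling and on single libraries. P4HB lost its call with library totals in place of TMM (-0.18, edgeR adjusted p = 0.129), and with cyclic loess its value came to -0.068 and that of CALR to -0.010, while HSP90B1 was called higher (0.25, limma adjusted p = 0.0134). Without TRiC input replicate 1 the values were -0.21 for P4HB and -0.17 for CALR (edgeR adjusted p = 0.216 and 0.291), without TRiC input replicate 2 they were -0.26 and -0.23 (0.0858 and 0.112), and without TRiC pulldown replicate 2 CALR came to -0.16 (0.053). HYOU1 came to -0.19 without TRiC pulldown replicate 1. It was called lower with a replicate block (-0.15, edgeR adjusted p = 0.0313), where 2652 of 17934 genes were called lower. Values in this line also moved with coding length: the median log2 fold change over nuclear protein-coding genes was -0.19 below 358 codons, -0.0031 from 358 to 999 codons, where all members lie, and 0.18 above 999 codons. In the middle class 7.53% of 7434 genes were called lower, and the part of length in the members' values was not tested.

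In the PFD comparison 9 of 10 members had fold changes above 1, against 49.9% of all genes tested, and HSP90B1 lay below 1. This count of directions was not tested, and none of the members passed the test (edgeR). The background was low as well, with 0.191% of 14111 genes called lower and 0.0496% called higher. P4HB and HYOU1 had an unadjusted p under 0.05 in edgeR, among 978 of 14111 genes that did. DESeq2 called 1 member (P4HB), where it called 281 of all 14111 genes lower and 252 higher. Limma on cyclic loess values called 0 members.

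P4HB was measured at 1232 and 1148 normalised CPM in the PFD inputs and at 1390 and 1454 normalised CPM in the pulldowns. HYOU1 was measured at 422 and 363 normalised CPM in the inputs and at 509 and 457 normalised CPM in the pulldowns. For both, each pulldown lay above each input, with log2 fold changes of 0.26 (95% interval 0.069 to 0.44, edgeR adjusted p = 0.679) and 0.30 (0.017 to 0.58, edgeR adjusted p = 0.719). CANX at 1069 and 1091 normalised CPM in the inputs, and at 1177 and 1240 normalised CPM in the pulldowns, was the lectin with separate groups (0.16, interval -0.023 to 0.35). PDIA4 also kept its groups apart, though barely, with 204 and 185 normalised CPM against 205 and 259 normalised CPM (0.25, interval -0.11 to 0.61). That made 4 members with both pulldowns above both inputs, against 18.3% of genes tested.

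HSP90B1 was measured at 987 and 939 normalised CPM in the PFD inputs and at 676 and 937 normalised CPM in the pulldowns. Only the first pulldown, the library with the fewest counts, was clearly lower, and the second lay next to an input. The log2 fold change was -0.26 (interval -0.59 to 0.085) with all libraries, -0.043 without PFD pulldown replicate 1 and -0.51 without PFD pulldown replicate 2. It was the 1 member with both pulldowns below both inputs, against 20.4% of genes tested. HSPA5 (0.16, interval -0.091 to 0.40), CALR (0.098, -0.10 to 0.30), PDIA3 (0.051, -0.26 to 0.36), DNAJB11 (0.038, -0.36 to 0.44) and PDIA6 (0.039, -0.15 to 0.23) had overlapping groups. With 1 pulldown left out, the lone pulldown has no spread of its own, so only values are given. They were 0.25 for HSPA5 and 0.29 for P4HB without replicate 1. Without replicate 2 they were -0.51 for HSP90B1, 0.37 for HYOU1 and 0.22 for P4HB.

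Whether the recoveries with TRiC and with PFD differed was tested as an interaction over all 8 libraries. No member passed, beside 0.0159% of 18855 genes called lower and 0.0212% called higher (edgeR). A lower value in the TRiC line was seen for 8 of 10 members, where 49.7% of all genes tested had a higher one. This count was not tested. P4HB had the widest difference, -0.48 on the log2 scale (95% interval -0.75 to -0.20, edgeR adjusted p = 0.178), being below 1 in the TRiC and above 1 in the PFD line. HYOU1 followed with -0.43 (-0.74 to -0.12, edgeR adjusted p = 0.235). PDIA4 (-0.36), CALR (-0.28), CANX (-0.21), HSPA5 (-0.18), DNAJB11 (-0.088) and PDIA6 (-0.071) were also below 0, and HSP90B1 (0.35, -0.16 to 0.85) and PDIA3 (0.027) above. P4HB and HYOU1 had an unadjusted p under 0.05 in edgeR, among 2791 of 18855 genes that did. DESeq2 called 3 members (P4HB, HYOU1 and CALR, all lower), where it called 521 of all 18855 genes lower and 464 higher. Limma on cyclic loess values called 0 members. With 1 PFD pulldown left out, the lone pulldown has no spread of its own, so only values are given. Without PFD pulldown replicate 1 the difference was -0.39 for CALR and -0.55 for PDIA4. Without replicate 2 it was -0.45 for HYOU1 and 0.67 for HSP90B1.

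**Figure D3:**
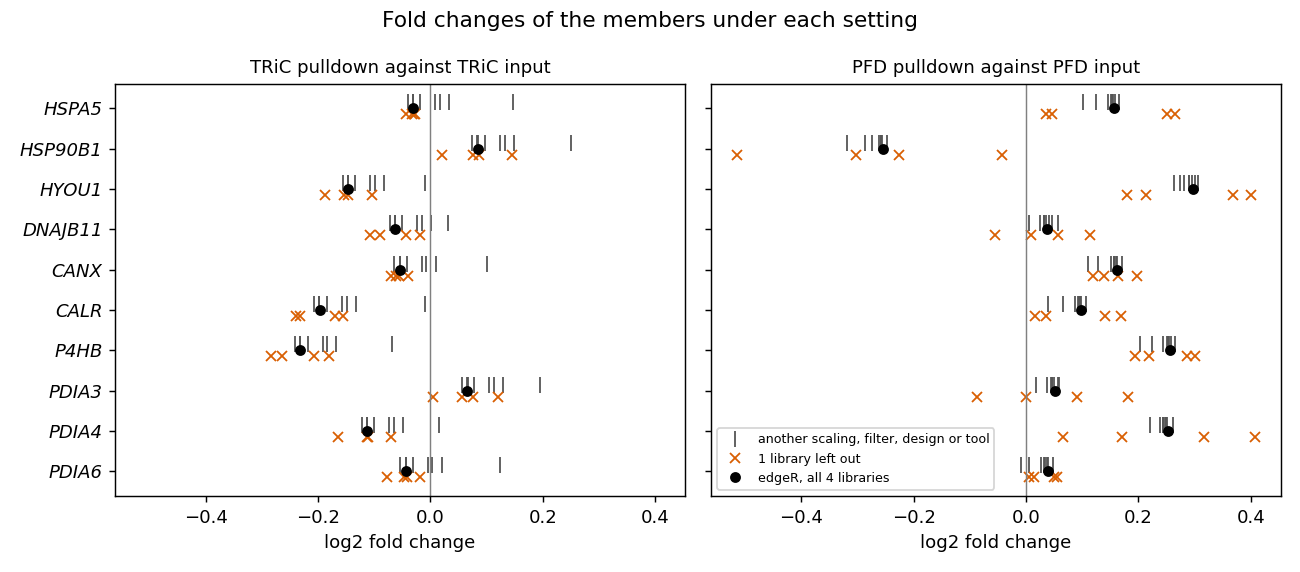
Log2 fold change of each member (y axis) in the TRiC line (left) and the PFD line (right), with a black point for edgeR on all 4 libraries, grey ticks for another scaling, filter, design or tool and crosses for fits with 1 library left out. HSPA5, DNAJB11, CANX, PDIA4 and PDIA6 lie on both sides of 0 in the TRiC line, and HSP90B1 in the PFD line spans -0.51 to -0.043 as pulldowns are left out.

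The total ribosomes of both lines were compared to see how the members' own synthesis differed. PDIA4, DNAJB11, CALR and PDIA3 were higher in the TRiC input than in the PFD input and CANX was lower. That is 4 members higher, where 10.5% of 18855 genes were called higher, and 1 lower, where 9.93% were. PDIA4 had the widest gap, 1.88-fold, and the membrane-bound lectin CANX (0.707-fold) went the opposite way from its soluble relative CALR (1.38-fold). RPF counts alone cannot tell more ribosomes on an mRNA from more copies of that mRNA.

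In CPM scaled within each line, PDIA4 was measured at 386 and 365 in the TRiC inputs and at 204 and 185 in the PFD inputs. CANX was measured at 775 and 787 in the TRiC inputs and at 1069 and 1091 in the PFD inputs. For these 2 genes the groups lay far apart and the call held under all 15 alternatives run. The log2 fold changes from the fit of all 8 libraries were 0.91 ± 0.14 (SE, edgeR adjusted p = 0.00251) and -0.50 ± 0.076 (0.00267). DNAJB11 was measured at 148 and 145 in the TRiC inputs and at 105 and 93.8 in the PFD inputs, a difference of 0.52 ± 0.11 (edgeR adjusted p = 0.0136). CALR differed by 0.46 ± 0.092 (0.0101) and PDIA3, the isomerase that works with it, by 0.40 ± 0.12 (0.0449).

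HYOU1 (0.28, edgeR adjusted p = 0.0724), P4HB (-0.24, 0.075), HSPA5 (0.11, 95% interval -0.15 to 0.37), PDIA6 (0.075, -0.092 to 0.24) and HSP90B1 (0.012, -0.35 to 0.37) did not pass. The median over all genes tested was 0.18 in this comparison and -0.0041 among genes with at least 100 counts in every library. Set against 0.18, the differences were 0.73 for PDIA4, 0.34 for DNAJB11, 0.28 for CALR, 0.21 for PDIA3 and -0.69 for CANX. Over all alternatives, each against its own median, they ran from 0.49 to 1.12 for PDIA4 and from -0.96 (without PFD input replicate 1) to -0.25 (cyclic loess) for CANX. Those of DNAJB11 ran from 0.096 to 0.68 and those of CALR from 0.035 to 0.73 (both lowest without a filter and highest with cyclic loess), and those of PDIA3 from -0.030 without a filter to 0.61. With 1 input left out they were 0.17 for DNAJB11 and 0.072 for CALR without PFD input replicate 1, and 0.15, 0.11 and, for PDIA3, -0.026 without PFD input replicate 2. The calls for PDIA3, DNAJB11 and CALR rested on single libraries. Without PFD input replicate 2 they came to 0.28 (edgeR adjusted p = 0.199), 0.45 (0.0853) and 0.42 (0.0826), and without TRiC input replicate 1 to 0.36 (0.257), 0.52 (0.124) and 0.45 (0.0687). Without TRiC input replicate 2 PDIA3 (0.47, 0.129) and DNAJB11 (0.56, 0.096) lost their calls, and PDIA3 also without TRiC pulldown replicate 1 (0.42, 0.0767) or 2 (0.41, 0.0874), with a replicate block (0.40, 0.0622) and with TMM over nuclear protein-coding genes (0.36, 0.0577). HYOU1 came to 0.43 without PFD input replicate 1 and to 0.29 without PFD pulldown replicate 1 or 2, and P4HB to -0.23 without either pulldown. Leaving out a PFD pulldown took no input library away. The common dispersion of the fit, a measure of spread between replicates, went from 0.22 to 0.081 without replicate 1 and 0.078 without replicate 2.

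**Figure D4:**
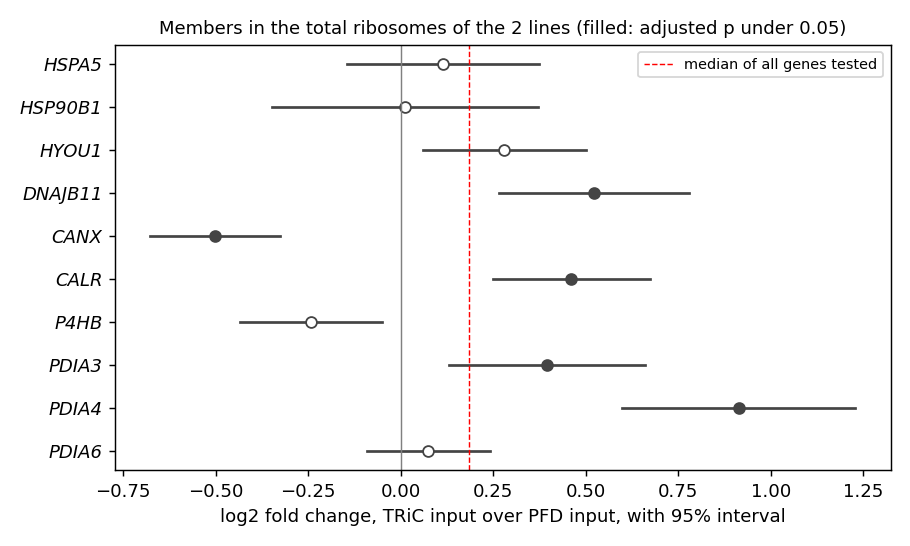
Log2 fold change of the TRiC input over the PFD input (x axis) for the 10 members (y axis), with the edgeR estimate from all 8 libraries (points, filled for an adjusted p under 0.05), its 95% interval (lines) and the median of all genes tested, 0.18 (dashed line). PDIA4 lies farthest to the right and CANX farthest to the left.

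The members were then set beside the other genes of their pathways, from lists drawn up with earlier results of these data known. In the TRiC pulldown 10.6% of all genes tested were called lower and 8.64% higher by edgeR. The Hsp70 and Hsp90 system of the lumen had 2 of 16 genes called lower and 0 higher. They were MANF (-0.42), a small protein that binds BiP, and SDF2L1 (-0.35), a partner of ERdj3, whereas the J protein DNAJC10 had the highest value among its genes with a mean of at least 100 counts in the line (0.16, edgeR adjusted p = 0.223), the limit used for the ends of all lists. Of 15 genes of the calnexin cycle 2 were lower, CALR and the glucosidase II subunit PRKCSH (-0.26), and 1 was higher, UGGT2 (0.53), a relative of the folding sensor UGGT1. The 20 disulfide isomerases and oxidases had 4 lower and 1 higher, from ERP29 (-0.31) to TXNDC16 (0.69). The 17 other luminal chaperones and prolyl isomerases had 5 lower and 1 higher, from the calcium-binding RCN3 (-0.42) to the prolyl isomerase FKBP11 (0.70).

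Translocation and glycosylation genes had 9 of 34 lower and 1 higher. OST4 (-0.58), a very small subunit of the oligosaccharyltransferase, was at the low end and SRP9 (0.46, edgeR adjusted p = 0.134) at the high end. Of nuclear protein-coding genes below 358 codons, 22.6% were called lower, and the part of length in the list counts was not tested. Among 14 genes of the unfolded protein response XBP1 (-0.42), its transcription factor, was lower and EIF2AK3 (0.33), which encodes the sensor PERK, higher. List medians lay from -0.16 (other luminal chaperones) to -0.024 (unfolded protein response), against -0.0032 over all genes tested and -0.059 for the 10 members. With library totals or cyclic loess in place of TMM the calls in the disulfide list fell from 5 to 3 and 1, and those of the other luminal chaperones from 6 to 2 in both cases. Without TRiC input replicate 1 the calls were 1, 1, 1 and 1 for the first 4 lists and 0 for the unfolded protein response, and without TRiC input replicate 2 they were 1 for the calnexin cycle, the disulfide list and the unfolded protein response and 6 for translocation and glycosylation. Leaving out TRiC pulldown replicate 1 gave more calls for the first 2 lists and fewer for the unfolded protein response. Leaving out TRiC pulldown replicate 2 gave fewer for the other luminal chaperones. The fit of all 8 libraries gave 0 for every list, where 15 of 18855 genes were called lower and 16 higher. Over all genes tested 1265 were called lower and 1801 higher with library totals, and 1433 and 1630 with cyclic loess. Calls over all genes also fell without either TRiC input replicate.

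In the PFD pulldown 0.191% of all genes tested were called lower and 0.0496% higher. The 1 gene called in these 6 lists was the prolyl isomerase PPIB (cyclophilin B). It was measured at 1248 and 1367 normalised CPM in the PFD inputs and at 574 and 605 normalised CPM in the pulldowns, which gave a log2 fold change of -1.15 ± 0.090 (edgeR adjusted p = 0.00556). In the TRiC line it stood at 670 and 612 normalised CPM in the inputs and 576 and 515 normalised CPM in the pulldowns (-0.23, edgeR adjusted p = 0.0327). Antisense genes overlap 26.6% of the PPIB exon sequence, 25.2% in the member PDIA6 and at most 9.77% in the other members. Among the genes of all lists this share reached 56.6% (SPCS1), with 28.5% for TRAP1 and 25.2% for OST4. Which strand was counted is not given in the sources used here. Among genes with a mean of at least 100 counts in the PFD line, the ends of the other lists, none of which passed, were SDF2 (-0.55) and HYOU1 (0.30), EDEM1 (-0.58) and OS9 (0.22), TMX4 (-1.62) and TXNDC11 (0.42), SEC11C (-0.54) and OST4 (0.78), PPP1R15B (-0.25) and ERN1 (0.89), and FKBP7 (0.61) above PPIB. Fits with 1 PFD pulldown left out gave further calls in these lists, but a lone pulldown has no spread of its own.

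Between the inputs of the lines the same lists split in both directions. Over all genes tested 10.5% were called higher in the TRiC input and 9.93% lower. In the Hsp70 and Hsp90 system 4 of 16 genes were higher in the TRiC input and 0 lower (edgeR), namely DNAJB11, SDF2L1 (0.90), MANF (0.82) and SIL1 (0.60), a nucleotide exchange factor for BiP. In the calnexin cycle CALR was higher and CANX, EDEM1 (-1.63), which takes part in the disposal of misfolded glycoproteins, and LMAN1 (-0.42), a lectin that carries cargo out of the ER, were lower. Translocation and glycosylation had 13 of 34 genes lower and 2 higher, with a median of -0.37 against 0.18 for all genes tested. The disulfide list had 5 lower and 2 higher, the latter being the members PDIA4 and PDIA3, the other luminal chaperones 2 lower and 3 higher, and the unfolded protein response 2 lower (PPP1R15A at -1.07 and PPP1R15B at -0.996) and 1 higher (MBTPS1, 0.66). Calls in these 6 lists, 4, 4, 7, 5, 15 and 3, came to 2, 2, 4, 2, 9 and 0 without TRiC input replicate 1, and the translocation list had 8 without PFD input replicate 1, 9 without PFD input replicate 2 and 9 without TRiC input replicate 2. Without PFD input replicate 2 the first 4 lists had 2, 2, 3 and 1 calls, without PFD input replicate 1 the disulfide list had 4 and the other luminal chaperones 3, and without TRiC input replicate 2 the Hsp70 and Hsp90 system had 2, the disulfide list 3, the other luminal chaperones 3 and the unfolded protein response 1. Without PFD pulldown replicate 1 or 2 the first 2 lists and the unfolded protein response had more calls, in fits with the lower common dispersion given above. Calls over all genes fell whichever input library was left out.

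Several members have a close relative in the cytosol or the mitochondrion, where the nascent chain stays outside the ER. In the TRiC pulldown 8 of 14 such relatives were called lower and none higher (edgeR, median -0.25), where 10.6% and 8.64% of all genes tested were. They were the cytosolic Hsp70s HSPA8 (-0.26), HSPA1A (-0.46) and HSPA1B (-0.35), the cytosolic Hsp90 HSP90AB1 (-0.24), the mitochondrial Hsp90 TRAP1 (-0.29), the J proteins DNAJA1 (-0.23) and DNAJB1 (-0.29) and the mitochondrial thioredoxin TXN2 (-0.37). HSPA1A and HSPA1B are near-identical copies, so their counts are uncertain. HSPA4 (-0.17), HSPH1 (-0.095), HSPA9 (-0.18), HSP90AA1 (-0.084), DNAJA3 (-0.17) and TXN (-0.27) did not pass. The part of coding length in these values was not tested. From positions along transcripts, the paper reports Hsp90 and Hsp70 chaperones as enriched among the nascent chains bound by both TRiC and PFD. Gene totals hold no positions and do not address that result. The count of 8 fell to 2 with library totals, to 5 among genes with at least 100 counts in every library and to 2 with cyclic loess. In that order 1265 of 17934, 1414 of 11166 and 1433 of 17934 genes were called lower, against 1894 of 17934 in the main fit. The count was 0 in the fit of all 8 libraries, where 15 of 18855 genes were called lower. It also fell without either TRiC input replicate, as did the calls over all genes. In the PFD pulldown 0 of 14 passed in edgeR and 1 in DESeq2, with values from -0.64 (TRAP1) to 0.62 (DNAJA3). DESeq2 called 281 of 14111 genes lower and 252 higher in that comparison.

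Ratios of counts within a library need no scaling between libraries. They are not corrected for coding length, so only their change between groups is read. HSP90B1 over HSP90AB1 was 0.454 and 0.440 in the TRiC inputs and 0.524 and 0.601 in the TRiC pulldowns, a 1.26-fold higher mean with no overlap. HSP90B1 over TRAP1 went from 7.03 and 6.96 to 8.40 and 9.75 in the same libraries. HSPA5 over HSPA8 went from 3.21 and 2.89 to 3.62 and 3.52, and HSPA5 over the mitochondrial HSPA9 from 2.50 and 2.47 to 2.71 and 2.81. These 4 ratios and DNAJB11 over DNAJB1 (1.47 and 1.48 against 1.74 and 1.71) had separate groups in the TRiC line, while HYOU1 over HSPH1 and over HSPA4 overlapped. Of the genes below the line, HSP90AB1 (-0.24), TRAP1 (-0.29), HSPA8 (-0.26) and DNAJB1 (-0.29) were called lower by edgeR, and HSPA9 (-0.18) was not. HSP90B1 (0.085), HSPA5 (-0.031) and DNAJB11 (-0.063) were not called, so these ratios do not show a gain of the ER genes. Separate groups are common with 2 libraries against 2, as the shares of 31.2% and 29.3% of single genes given above show. With 2 libraries against 2 an exact two-sided permutation test cannot go below p = 0.333, so no test was made.

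In the PFD line HSP90B1 over HSP90AB1 was 0.218 and 0.214 for inputs against 0.153 and 0.209 for pulldowns, lower in the pulldowns where the TRiC line was higher. HSP90B1 over TRAP1 went the other way in the same libraries, from 3.66 and 3.58 to 4.24 and 5.15, a 1.30-fold higher mean, as in the TRiC line. HYOU1 over HSPA4 was also higher without overlap, from 0.573 and 0.455 to 0.698 and 0.615, and HSPA5 over HSPA9, HYOU1 over HSPH1 and DNAJB11 over DNAJB1 overlapped. HSPA5 over HSPA8 was 1.42 and 1.22 for inputs against 1.28 and 1.42 for pulldowns, which overlapped. For the ratios to HSP90AB1 and HSPA8 the inputs of the 2 lines lay farther apart than pulldown and input of either line. HSPA8 (-1.09) and HSP90AB1 (-1.03) were lower in the TRiC input than in the PFD input (edgeR adjusted p = 0.000106 and 5.29e-05), in the same test in which HSPA5 and HSP90B1 did not pass.

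**Figure D5:**
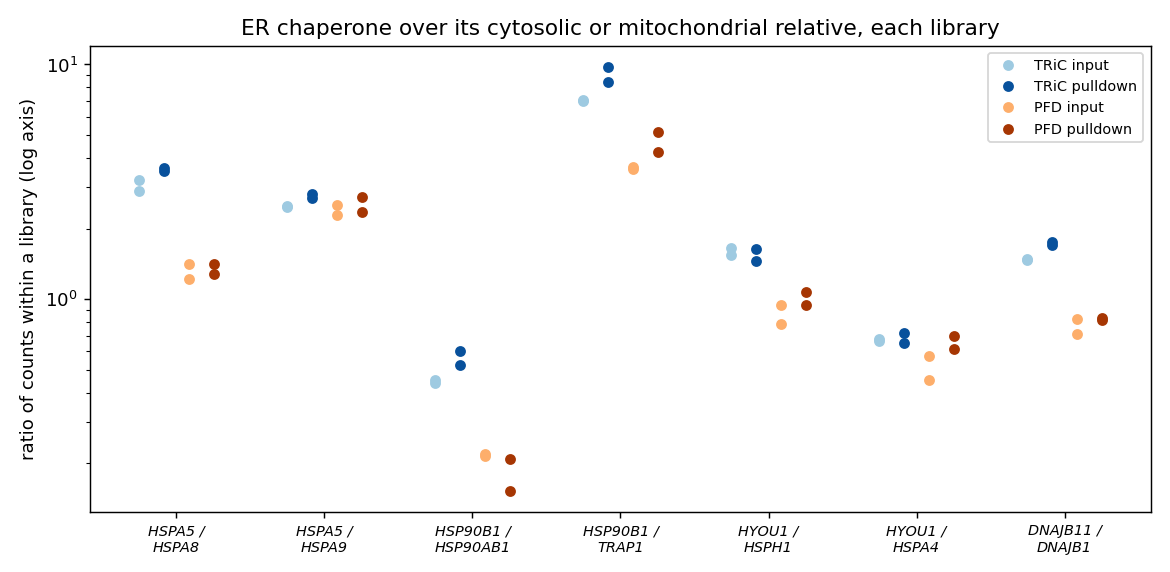
Ratio of counts within each library (y axis, log scale) of an ER chaperone over a cytosolic or mitochondrial relative (x axis), with a point for each library in the 4 groups. HSP90B1 over HSP90AB1 lies at 0.440 to 0.601 in the TRiC line and at 0.153 to 0.218 in the PFD line.

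Members did not follow a single pattern over the 8 libraries. The mean of the members' centred log2 CPM was taken over the 9 members with at least 1000 counts in every library, which leaves out DNAJB11. The Pearson correlation of a member with this mean, which includes it, was 0.92 for HSPA5, 0.81 for CALR and 0.74 for PDIA4 and PDIA6. It was 0.67 for PDIA3, 0.62 for HYOU1 and 0.45 for HSP90B1, but -0.050 for P4HB and -0.28 for CANX. Among 1899 genes with at least 1000 counts in every library, CLSTN1 (0.93), PPT1 (0.92), PRKDC (0.90), NFE2L1 (0.89) and UBTF (0.87) were most like the mean. These 8 libraries fall into 2 lines with 4 each, so the points of a line share its clone and preparation.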

How the data were processed

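RPFs of 8 libraries were analysed, from the 2 tables of whole-number read counts per gene that the authors deposited, 1 for each line. Per the labels and methods, the authors removed PCR duplicates with UMI-tools, discarded non-coding RNA with Bowtie2 2.4.2 and counted unique alignments to hg38 with STAR 2.7.10a. The annotation release and strand column are not given in the sources used here. Gene totals hold no positions within a transcript.

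From the deposited counts, edgeR 4.0.16 in R 4.3.3 (TMM, filterByExpr, glmQLFit and glmQLFTest, no replicate block) was fitted to all genes, for the 4 libraries of each line and for all 8 libraries (interaction and input comparison). Genes with a Benjamini-Hochberg adjusted p under 0.05 were called. A call sets the difference between group means against the spread between replicates, here 2 a group, estimated with information shared over genes. Of 60664 identifiers 60463 matched GENCODE 44. Alternatives were DESeq2 1.42.0, a fit with the replicate block, scaling by library totals, TMM over nuclear protein-coding genes, no filter, at least 100 counts in every library, limma 3.58.1 on cyclic loess values (prior count 2), all 8 libraries in one fit and each library left out. The edgeR, DESeq2 and limma fits were tested on simulated data.

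The members and lists were chosen with earlier results of these data known. Genes named are all members, the highest and lowest gene of each list with a mean count of at least 100 in that line, each called gene of lists with at most 4, all counterparts, and the 5 genes most like the members. Same-numbered replicates did not deviate together in both lines (correlation 0.19 in the TRiC and -0.022 in the PFD line), and 2 pairs do not establish pairing. The coding end of 1 member is not reported here.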

Additional observations from a re-analysis of the deposited data

How the results depend on the processing

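Counts are of members called out of 10. In the TRiC pulldown 2 became 0 with library totals, at least 100 counts in every library and all 8 libraries in one fit. In that order 1265 of 17934, 1414 of 11166 and 15 of 18855 genes were called lower, against 1894 of 17934 in the main fit. The 2 became 1 with TMM over nuclear protein-coding genes, where 1486 of 17934 genes were called lower. With cyclic loess neither CALR nor P4HB was called. HSP90B1 alone was called there, higher (0.25), where 1630 of 17934 genes were called higher. In the PFD pulldown 0 became 1 with DESeq2. For the difference between enrichments 0 became 3 with DESeq2 and 1 without a filter, where 213 of 37463 genes were called higher and 298 lower. Between inputs 5 became 7 with DESeq2 and 8 with cyclic loess. Of all 18855 genes DESeq2 called 2915 higher and 2370 lower there, and cyclic loess 1864 and 2157. In each comparison the count also changed in some fits with 1 library left out. With a replicate block the counts were 3, 0, 0 and 4 in this order.

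Directions turned for members that were not called. In the TRiC pulldown HSPA5 came to 0.016 with library totals, 0.0082 with TMM over nuclear protein-coding genes, 0.033 with at least 100 counts and 0.15 with cyclic loess, DNAJB11 to 0.0013 and 0.032, CANX to 0.0093 and 0.10, and PDIA6 to 0.020 and 0.12 with the last 2 settings, PDIA6 to 0.0026 with library totals and PDIA4 to 0.016 with cyclic loess. In the PFD pulldown DNAJB11 ran from -0.055 to 0.11 and PDIA3 from -0.088 to 0.18 with 1 library left out, both turning without PFD input replicate 2, and PDIA6 to -0.0098 with cyclic loess. For the difference between enrichments HSPA5 came to 0.038 and PDIA6 to 0.12 with cyclic loess, PDIA6 ran from -0.13 to 0.0081, turning without PFD pulldown replicate 2, and PDIA3 came to -0.0039 without a filter and to -0.14, -0.050 and -0.032 without PFD input replicate 1, PFD pulldown replicate 1 and TRiC input replicate 2. Between inputs HSP90B1 came to -0.022 with TMM over nuclear protein-coding genes and ran from -0.015, without PFD input replicate 2, to 0.087. These causes were not tested. The PFD pulldowns differed in spread and in depth (9523128 and 28582306 counts), which were not separated.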
